A study of Mus musculus with 10 samples.

Results

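The genes described here are a hand-chosen list of 37 lysosomal genes. They encode soluble hydrolases, proteins of the lysosomal membrane, subunits of the proton pump, the secreted and lysosomal protein progranulin, and the transcription factor Tfeb. A member was found by its gene symbol in the annotation of the array, where a probe set is a group of short oligonucleotides that together report a single transcript value. When a gene had several probe sets, the one with the highest mean over all 10 arrays stood for it. In this way 36 of the 37 genes were measured, out of 18193 genes on the array, and Cd63 was not analysed here. All 36 were bright enough to be tested, and their symbols still matched the current gene identifiers.

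The mutant mice carried a mutation in Npas2 on a C57Bl/6J background, and the mice they were set against were wild type, labelled C57Bl/6. Both genotypes were male, and each was measured on 5 arrays of aortic total RNA, and the age of the mice is not given in the sources used here. All mice of both genotypes lived in 12 h of light and 12 h of dark for no less than 2 weeks, then spent 30 h or more in darkness, and were killed at zeitgeber time 14 h, counted from lights on of the earlier cycle. The labels do not say what kind of mutation Npas2 carries, whether the wild types were littermates, or whether each array held RNA from its own mouse, so a p-value reflects the spread among the arrays, which may be technical.

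Lysosomes break down proteins, glycans, lipids and glycosaminoglycans in an acid lumen. A proton pump of many subunits acidifies that lumen, soluble hydrolases cut the substrates, and heavily glycosylated proteins such as Lamp1, Lamp2 and Scarb2 line the membrane. Tfeb and its relatives Tfe3 and Mitf are basic helix-loop-helix factors that activate many of these genes through promoter elements built around an E-box, the palindrome CACGTG. NPAS2 also belongs to the basic helix-loop-helix proteins. It pairs with BMAL1 in the circadian clock, and that pair binds E-boxes too.

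The promoters of the lysosomal genes were therefore searched for the E-box. RefSeq promoters of the mouse assembly GRCm38.p6 were used, running from 250 bases before to 50 bases after each gene's start. Of the listed genes 32 had a promoter there, and Galns, Asah1, Npc1, Atp6v1h and Atp6v1b2 did not. Because CACGTG is its own reverse complement, a search of either strand finds the same matches. It was present in the promoter of 11 of the 32 genes (34.4%), against 2187 of 27025 genes in the whole table (8.09%). The longer palindrome TCACGTGA, which contains the shorter one, was present in 5 of the 32 genes (15.6%), against 304 genes in the whole table (1.12%). A match is a description of the letters and does not show that any factor binds there.

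The windows below are those of the 5 genes with the longer palindrome, of Gaa and Sgsh, whose levels are given further on, and of Lamp1, which held 4 copies. Each is written from 5′ to 3′ on the gene's own strand with CACGTG in capitals.
Atp6v0d1: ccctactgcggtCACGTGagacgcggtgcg
Atp6v1a: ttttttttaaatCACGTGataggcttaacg
Cln3: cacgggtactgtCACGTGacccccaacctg
Gla: taagcgattgatCACGTGagcatctacgtc
Mcoln1: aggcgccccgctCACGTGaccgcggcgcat
Gaa: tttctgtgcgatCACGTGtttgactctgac
Sgsh: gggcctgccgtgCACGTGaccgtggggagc
Lamp1: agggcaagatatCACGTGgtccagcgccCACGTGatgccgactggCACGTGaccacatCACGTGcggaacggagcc

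In that assembly the window of Atp6v0d1, a subunit of the pump's membrane sector, lies at chr8:105566050-105566079 on the minus strand, and its E-box begins 3 bases before the gene's start. Atp6v1a, the catalytic subunit of the pump's cytosolic sector, has its window at chr16:44139373-44139402 on the minus strand, 131 bases before the start. The window of Cln3, a membrane protein whose loss causes juvenile neuronal ceroid lipofuscinosis, lies at chr7:126583340-126583369 on the minus strand, 121 bases before the start, and a further CACGTG of that promoter, not printed, begins 149 bases before it. That of Gla, the alpha-galactosidase, lies at chrX:134601215-134601244 on the minus strand, 227 bases before the start, and a further TCACGTGA of that promoter, not printed, has its CACGTG 194 bases before it. Mcoln1, a calcium-permeable channel of the lysosomal membrane, has its window at chr8:3500462-3500491 on the plus strand, 45 bases before the start, and a further CACGTG, not printed, begins 71 bases before it. The window of Gaa, which breaks down glycogen, lies at chr11:119267811-119267840 on the plus strand, 140 bases before the start. That of Sgsh, a heparan sulfate sulfatase, lies at chr11:119355522-119355551 on the minus strand, 29 bases before the start. The Lamp1 window lies at chr8:13159088-13159163 on the plus strand, with copies beginning 61, 45, 28 and 15 bases before the start. The other genes with CACGTG were Arsa, Glb1 and Naglu.

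The array values are on a log2 scale, so a difference of 1 is a 2-fold change, and they lay between 1.1 and 14.74. Changes are the mutant mean minus the wild-type mean, with the standard error (SE) of a limma model fitted to all 22340 probe sets brighter than the median of the array in question on 5 or more of the arrays. A probe set counts as called when its limma p, adjusted for all 22340 tests by the Benjamini-Hochberg method, is under 0.05. By that rule 48 probe sets (0.215%) were called, 21 of them higher in the mutant and 27 lower. After centring each array on the tested probe sets, 34 of 52 called probe sets were higher. At an unadjusted p under 0.05 there were 3427 (15.3%). The smooth muscle markers of the aortic wall were bright, with Acta2 at a mean of 14.38 in mutant and 14.42 in wild-type aortas. Of the 2 Npas2 probe sets, 1421037_at lay between 3.38 and 3.47 in the mutants and between 3.44 and 3.96 in the wild types, and 1421036_at lay below the array median in every sample. Array medians were 3.14 to 3.2, so Npas2 was close to the lower end of measurement in both genotypes, and this is a weak check of the labels.

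None of the 36 lysosomal genes was called on its brightest probe set. By limma, 0 of 36 had an adjusted p under 0.05, where 0.183% of the brightest probe sets of all 10943 tested genes did. At an unadjusted p under 0.05 there were 4 (11.1%), a share below the 15% of all genes. Gaa was the gene higher in the mutant among those 4, and Scarb2, Sgsh and Ids were lower. The mutant mean was higher for 17 of the 36 genes and lower for 19, or 47.2% higher against 44.1% of all genes, and this split moved with the scaling of the arrays. It was 12 to 24 after centring each array on its median, 23 to 13 after quantile normalisation and 25 to 11 after centring on the tested probe sets. The splits given below for smaller groups of genes come from the deposited values and are subject to the same shifts.

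Changes of the lysosomal genes were small as well as uncalled. Their median change was -0.005, against -0.023 for all genes, and its sign moved with the scaling, to 0.02 after quantile normalisation and 0.053 after centring on the tested probe sets. As deposited, their median absolute change was 0.06, against 0.101 for all genes. Single changes ran from -0.51 to 0.16 with SEs of 0.05 to 0.21. For 35 of the 36 genes the 95% confidence interval of the change lay within 1.5-fold in either direction, the exception being Sgsh, and for 26 it lay within 1.25-fold. The mean level over the 36 genes was 7.23 to 7.34 on the mutant arrays and 7.26 to 7.35 on the wild-type arrays, so the arrays of the 2 genotypes overlapped across most of their range.

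**Figure D1:**
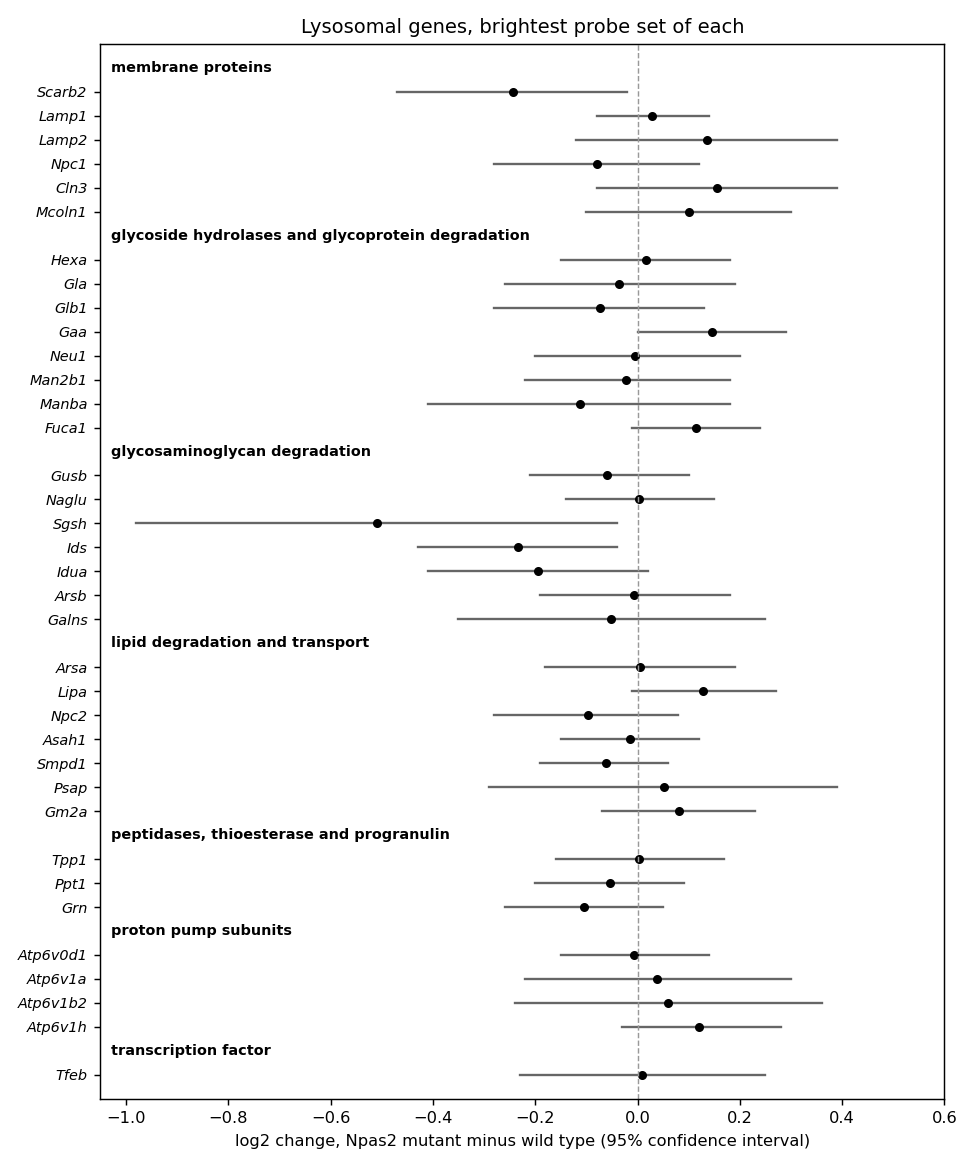
Change in log2 level (Npas2 mutant minus wild type, horizontal axis) for the 36 lysosomal genes, grouped by role, on the brightest probe set of each. Points are differences of means of 5 arrays against 5, and lines are 95% confidence intervals of the limma fit. Most points lie within 0.1 of 0, with Sgsh at -0.51 farthest out.

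Among the 6 membrane protein genes, 4 had a higher and 2 a lower mutant mean, with a median change of 0.06. Scarb2, which encodes the receptor that carries beta-glucocerebrosidase to lysosomes, gave different answers on its 2 probe sets. On the brighter, 1454704_at, its level was 9.42, 9.45, 9.88, 9.88 and 9.54 in mutant arrays F12, F13, F18, F19 and F20, against 9.86, 9.83, 9.83, 9.94 and 9.93 in wild-type arrays F11, F14_2, F15, F16 and F17. Mutant arrays F12, F13 and F20 were below every wild type, while F18 and F19 fell inside the wild-type range. Means were 9.63 ± 0.23 in the mutants and 9.88 ± 0.05 in the wild types (SD, n = 5 each), a change of -0.24 (SE 0.10) with a limma adjusted p of 0.286, which did not pass.

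The dimmer Scarb2 probe set, 1460235_at, was the only called probe set among the 66 tested probe sets of the lysosomal genes, and it went the other way. It read 8.42, 8.34, 8.48, 8.40 and 8.48 in the mutants, against 8.12, 8.02, 8.10, 8.03 and 7.98 in the wild types. Every mutant array was above every wild-type array. Means were 8.42 ± 0.06 in the mutants and 8.05 ± 0.06 in the wild types (SD, n = 5 each), so this signal rose by 0.37 (SE 0.05, 95% confidence interval 0.25 to 0.49), or 1.3-fold, with a limma adjusted p of 0.0306.

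That call was close to the threshold. Leaving out each array in turn kept the change between 0.35 and 0.39, but the adjusted p stayed under 0.05 in only 2 of the 10 fits, those without wild-type array F11 (0.0449) and without mutant array F13 (0.0481). In the other 8 it lay between 0.0518 and 0.0789. The probe set was known from earlier results of these data to be called, so the call is not independent evidence.

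The gap between the 2 Scarb2 probe sets within an array did not overlap between the genotypes. The level of 1460235_at minus that of 1454704_at ran from -1.49 to -0.99 in the mutants and from -1.95 to -1.73 in the wild types, with means of -1.21 ± 0.22 in the mutants and -1.83 ± 0.10 in the wild types (SD, n = 5 each). The difference between these means was 0.62. This gap was chosen after both probe sets had been seen, so it is given as a description with no test. Which probe set follows the Scarb2 transcript, and where in the transcript each one lies, was not analysed here.

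**Figure D2:**
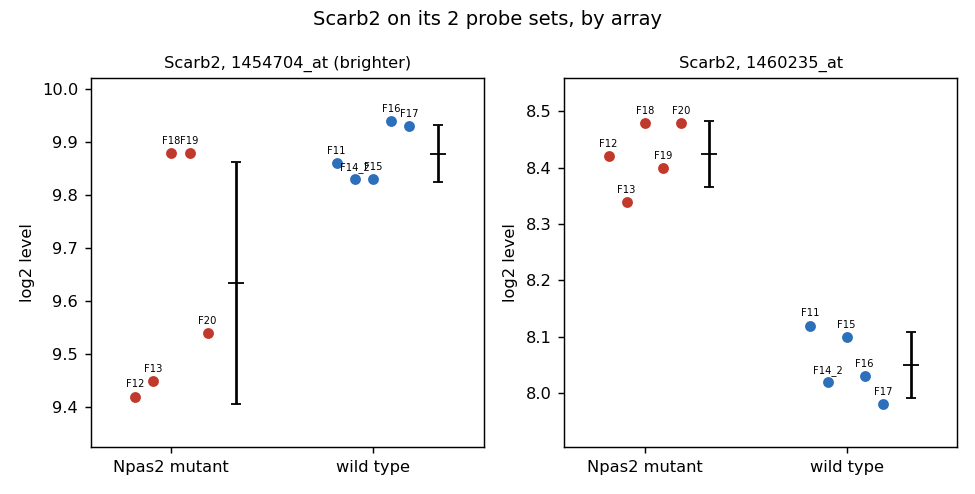
Log2 level of Scarb2 (vertical axis) on its brighter probe set (left) and its dimmer one (right), 1 point per array with its identifier, Npas2 mutant left of wild type, and mean ± SD in black (n = 5 each). On the left 3 mutant arrays lie below the wild types and 2 among them, and on the right all 5 mutants lie above all 5 wild types.

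Lamp2, a membrane glycoprotein required for chaperone-mediated autophagy, had 4 probe sets, and the mutant mean was higher on each, though none was called. The changes were 0.14 on the brightest probe set, 1434503_s_at (limma adjusted p 0.57), 0.11 on 1428094_at, 0.19 on 1416344_at and 0.30 on 1416343_a_at. The last read 8.92, 8.90, 8.77, 8.81 and 9.06 in the mutants, against 8.70, 8.43, 8.70, 8.54 and 8.60 in the wild types. The genotypes did not overlap there, yet the limma adjusted p was 0.124 (SE 0.08). Lamp1, the most abundant membrane glycoprotein of lysosomes, differed by 0.03 with a 95% confidence interval of -0.08 to 0.14, and its promoter window is the one with 4 E-boxes. The cholesterol transporter gene Npc1 differed by -0.08 and Mcoln1 by 0.10. Cln3 differed by 0.16, from low levels of 3.69 to 4.25 in the mutants and 3.53 to 3.72 in the wild types.

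The 8 genes of glycoside hydrolases and glycoprotein degradation had 3 higher and 5 lower mutant means, with changes of -0.11 to 0.15. The largest was that of Gaa, the acid alpha-glucosidase whose loss causes Pompe disease. Its brightest probe set, 1436849_x_at, read 7.14, 7.11, 7.15, 7.14 and 7.23 in the mutants, against 6.97, 7.14, 6.90, 6.91 and 7.12 in the wild types. The mutants were clustered and the wild types spread, with F14_2 and F17 inside the mutant range. The change was 0.15 (SE 0.06), unadjusted p 0.0455 and limma adjusted p 0.312, and on the other Gaa probe set, 1419428_a_at, it was 0.02. The other genes of this group were Fuca1, a fucosidase, at 0.12, Manba, a beta-mannosidase, at -0.11, Glb1, the beta-galactosidase, at -0.07, and Gla at -0.04, with Hexa, Man2b1 and Neu1 between -0.02 and 0.02.

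Glycosaminoglycan-degrading genes had 6 lower and 1 higher mutant mean out of 7, with a median change of -0.06 and none called. That is 14.3% higher, against 44.1% of all genes, but Gusb, Galns and Arsb were within 0.06 of 0. Centring on the tested probe sets moved Ids from -0.23 to -0.18 and Sgsh from -0.51 to -0.45, a shift about as large. The split of these 7 genes under that scaling was not counted. Ids encodes iduronate-2-sulfatase, which acts on heparan and dermatan sulfate. On its brightest probe set, 1455481_at, it read 9.34, 9.47, 9.62, 9.55 and 9.29 in the mutants, against 9.73, 9.53, 9.68, 9.60 and 9.89 in the wild types. Mutants F12, F13 and F20 were below all wild types, the same 3 arrays that were low for Scarb2, and F18 and F19 were inside the wild-type range. The change was -0.23 (SE 0.09), unadjusted p 0.0216 and limma adjusted p 0.245, with -0.11 on the other tested probe set, 1434751_at. The mean over all 6 Ids probe sets, 4 of them too dim to test, differed by -0.01 (limma adjusted p 0.908).

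Sgsh had the largest change of any listed gene and one of the lowest levels. It read 2.83, 3.98, 3.96, 4.0 and 3.89 in the mutants, against 4.47, 4.17, 4.38, 4.0 and 4.19 in the wild types. The genotypes met at 4.0 without overlapping, and Sgsh was the 1 of 36 genes that did not overlap, where 4.21% of all genes did not. Means were 3.73 ± 0.50 in the mutants and 4.24 ± 0.18 in the wild types (SD, n = 5 each), a change of -0.51 (SE 0.21) with a limma adjusted p of 0.286. Mutant array F12, where Sgsh was below the array median of 3.178, set much of its size, since without it the change was -0.29. With the mean level of brown fat markers as a covariate the change was -0.12 (SE 0.40, limma adjusted p 0.957). That mean separated the genotypes completely, so this fit can hardly tell brown fat content from genotype. The other Sgsh probe set, 1422988_at, was too dim to test and differed by 0.01. The remaining genes of this group were Idua, the iduronidase, at -0.19, Gusb, the beta-glucuronidase, at -0.06, the sulfatase gene Galns at -0.05, the sulfatase gene Arsb at -0.01, and Naglu, an alpha-N-acetylglucosaminidase, at 0.00.

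The 7 genes of lipid degradation and transport lay between -0.10 and 0.13, with 4 higher and 3 lower and no unadjusted p under 0.05. Lipa, the acid lipase that hydrolyses cholesteryl esters and triglycerides, had the largest change. Its brightest probe set, 1450872_s_at, read 6.52, 6.61, 6.53, 6.69 and 6.52 in the mutants, against 6.38, 6.57, 6.45, 6.51 and 6.32 in the wild types. All mutants exceeded the wild-type mean, yet wild-type array F14_2 lay among them, and the change was 0.13 (SE 0.06, limma adjusted p 0.362). The other tested Lipa probe set, 1423140_at, differed by 0.27 at a lower level. There mutant F13 read 5.16, against 4.39 to 4.61 in the other mutants and 4.18 to 4.47 in the wild types. Npc2, a cholesterol-binding partner of NPC1, differed by -0.10, the ganglioside activator gene Gm2a by 0.08, the acid sphingomyelinase gene Smpd1 by -0.06, and the saposin precursor gene Psap by 0.05. The acid ceramidase gene Asah1 differed by -0.01 and the arylsulfatase gene Arsa by 0.00.

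Of the 3 genes for the peptidase Tpp1, the thioesterase Ppt1 and progranulin (Grn), the last had the largest change. Grn read 9.36, 9.30, 9.51, 9.53 and 9.51 on 1456567_x_at in the mutants, against 9.44, 9.47, 9.65, 9.62 and 9.56 in the wild types. The genotypes overlapped and the change was -0.10 (SE 0.07, limma adjusted p 0.478), with -0.10 and -0.17 on its 2 other probe sets. Tpp1 differed by 0.00 and Ppt1 by -0.05.

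The 4 proton pump genes differed by -0.01 to 0.12, with 3 higher and 1 lower. Atp6v1h, a regulatory subunit of the cytosolic sector, read 7.85, 8.08, 8.07, 7.94 and 7.92 in the mutants, against 7.75, 7.75, 7.96, 7.96 and 7.82 in the wild types. These ranges overlapped, and the change was 0.12 (SE 0.07, limma adjusted p 0.422). Its other tested probe set, 1457639_at, differed by -0.19. Atp6v1a likewise had 0.04 on its brightest probe set and -0.21 on 1450634_at (unadjusted p 0.0376, limma adjusted p 0.293). Atp6v1b2 differed by 0.06 and Atp6v0d1 by -0.01.

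Tfeb, the factor that activates many of these genes, read 5.48, 5.34, 5.04, 5.31 and 5.65 in the mutants, against 5.15, 5.38, 5.5, 5.39 and 5.37 in the wild types. The mutants spanned the whole wild-type range. Means were 5.36 ± 0.22 in the mutants and 5.36 ± 0.13 in the wild types (SD, n = 5 each), a change of 0.01 (SE 0.11, 95% confidence interval -0.23 to 0.25, limma adjusted p 0.975). Its relatives Tfe3 and Mitf differed by 0.02 and 0.04. The transcript level of Tfeb does not measure its activity, which is controlled largely by where the protein sits in the cell.

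**Figure D3:**
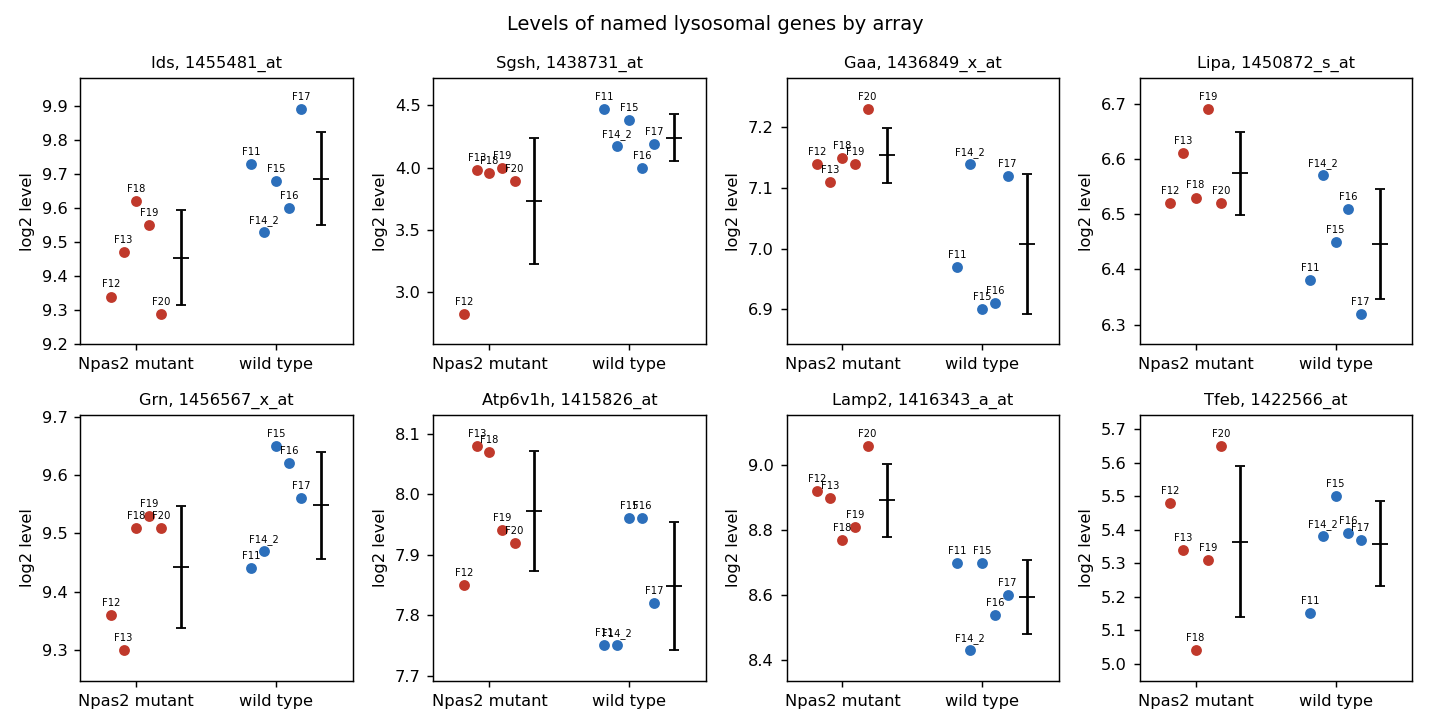
Log2 level (vertical axis) of 8 lysosomal genes, 1 point per array with its identifier, Npas2 mutant left of wild type, and mean ± SD in black (n = 5 each). Lamp2 is shown on probe set 1416343_a_at, where the genotypes do not overlap, and the others on their brightest probe set, with each vertical axis scaled to its own gene and not starting at 0.

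Probe sets of the same gene often differed in the sign of their change. Of the 36 genes, 21 had more than 1 tested probe set. For 9 of the 21 all tested probe sets had the same sign, and for 12 both signs occurred. Some of the latter changes were close to 0, as for Tpp1 (-0.014 and 0.003) and Man2b1 (-0.023 and 0.048). Only Scarb2 had both signs at a limma unadjusted p under 0.05. The median gap between the highest and lowest change of a gene was 0.13, the gap was 0.62 for Scarb2, and the next largest was 0.31, for Atp6v1h. Over all 66 tested probe sets, 8 had an unadjusted p under 0.05, 4 in each direction, a share of 12.1% against 15.3% of all tested probe sets.

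**Figure D4:**
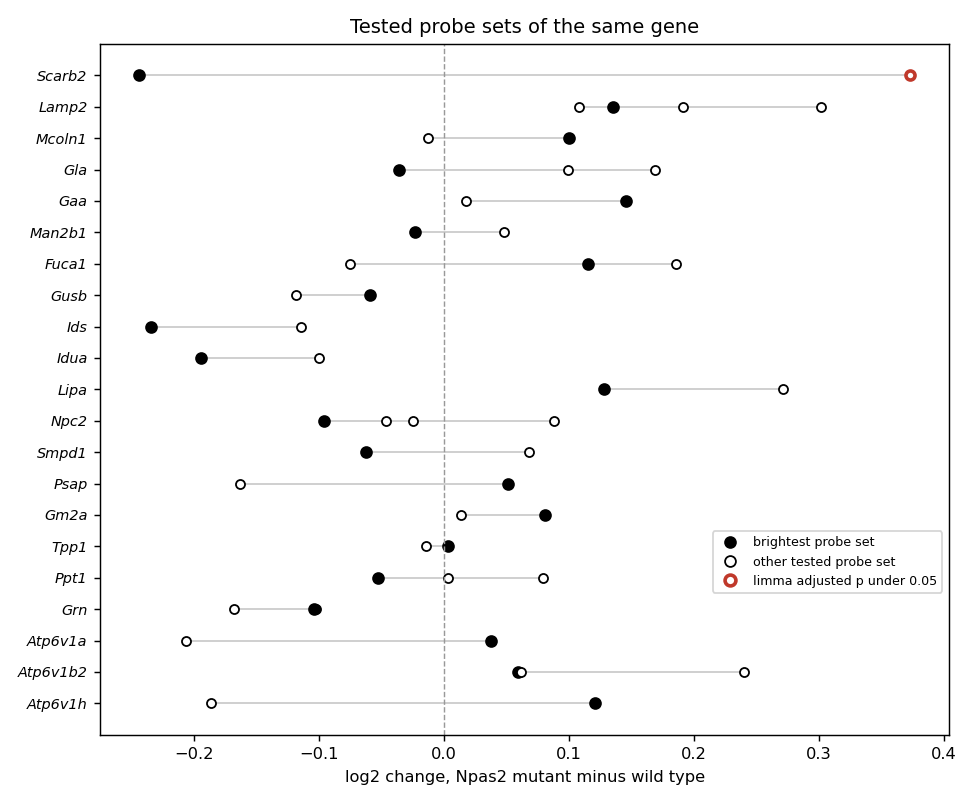
Change in log2 level (Npas2 mutant minus wild type, horizontal axis) for every tested probe set of the 21 lysosomal genes with more than 1. Filled points are the brightest probe set of a gene, open points the others, and the red outline marks the called probe set of Scarb2, whose gap of 0.62 is the widest.

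Changes were centred near 0 both in genes with the E-box and in genes without it. The 11 measured genes with CACGTG had a median change of 0.00, with changes of -0.51 to 0.16 and none called. The mutant mean was higher for 7 of the 11, against 44.1% of all genes, and such counts move with the scaling of the arrays. The 20 measured genes whose promoter lacked it had a median change of -0.01. Scarb2 was among those without a match in this window, which says only that these letters are not there.

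Further genes of the same pathway were taken from 5 lists, none of which held a called gene, and each is read here by its counts and its 2 genes of smallest p. Of all genes 44.1% had a higher mutant mean, and counts of direction move with the scaling of the arrays, which was not varied for these lists. Of 11 measured further hydrolases, 7 had a higher and 4 a lower mutant mean, with a median change of 0.06. Acp5, the tartrate-resistant acid phosphatase of macrophages and osteoclasts, had the smallest p of any gene on the 5 lists. It averaged 8.39 ± 0.22 in the mutants and 7.84 ± 0.10 in the wild types (SD, n = 5 each), without overlap, and the change was 0.54 (SE 0.10, limma adjusted p 0.0678). Ctbs, a chitobiase of glycoprotein breakdown, differed by -0.32 (adjusted p 0.284 by limma).

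Of 13 tested further membrane protein genes, 8 were higher and 5 lower. Tmem192 differed by 0.25 (limma adjusted p 0.177), and Slc38a9, an amino acid transporter that signals to mTORC1, by -0.55 (limma adjusted p 0.351), with an SD of 0.65 in the mutants and 0.19 in the wild types. Among 11 further pump subunit genes, 6 were higher and 5 lower, led by Atp6v1d at 0.18 (limma adjusted p 0.204) and Atp6v0b at 0.14 (limma adjusted p 0.282). Genes that sort and mature lysosomal proteins were higher for 5 (31.2%) and lower for 11 of 16, with a median change of only -0.04. The smallest p values there belonged to Sorl1, a sorting receptor, at -0.22 (limma adjusted p 0.34), and Ap3d1, a subunit of the AP-3 adaptor, at -0.15 (limma adjusted p 0.35). Of 13 tested regulators, 9 were higher and 4 lower. Flcn, folliculin, which controls the nuclear entry of Tfeb and Tfe3, differed by 0.22 (limma adjusted p 0.205), and the small GTPase gene Rragd by 0.11 (limma adjusted p 0.363). Tpcn2 and Tfec were too dim to test.

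Marker genes of several cell types differed between arrays, and lysosomal genes are expressed in all cell types. Fewer cells of a type and less RNA per cell cannot be told apart in whole aorta. Of 14 measured macrophage markers 11 had a higher mutant mean, with the largest changes in Cd14 (0.45) and Lyz2 (0.36). Ptprc, Itgam and Fcgr1 were lower, differing by -0.09, -0.07 and -0.01. By limma 4 of the 13 tested (30.8%), all higher, had an unadjusted p under 0.05, against 15% of all genes, and none was called. The log2 of the summed level of the 14 macrophage markers was 11.12 to 11.52 in the mutants and 10.88 to 11.21 in the wild types. Their part in the values of Acp5 and of the lysosomal genes was not tested apart from the fit with the list's mean as a covariate, in which 1460235_at of Scarb2 differed by 0.32 with a limma adjusted p of 0.203. That mean was 6.32 to 6.61 in the mutants and 6.12 to 6.37 in the wild types, so it overlapped in part between the genotypes. The SE of 1460235_at was 0.07 in that fit, against 0.05 without the covariate. Over all probe sets 1 was called in it, against 48 without the covariate. At a limma unadjusted p under 0.05 there were 2982, against 3427. Macrophage content and genotype can therefore be told apart only in part in that fit.

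Brown fat markers differed more. Of 10 measured, 9 had a higher mutant mean, with Ucp1 differing by 1.0, while Prdm16 was lower, at -0.27. By limma 7 of the 10 (70%), all higher, had an unadjusted p under 0.05, against 15% of all genes, and none was called. The log2 of the summed level of the 10 markers was 14.01 to 14.61 in the mutants and 13.43 to 14.13 in the wild types. The mean level of the list was 8.81 to 9.35 in the mutants and 7.99 to 8.59 in the wild types, without overlap. With that mean as a covariate the brighter Scarb2 probe set differed by 0.09, Ids by 0.03 and 1460235_at of Scarb2 by 0.34, with limma adjusted p values of 0.914, 0.973 and 0.543. Because the list's mean separated the genotypes completely, brown fat content and genotype can hardly be told apart in such a fit.

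Skeletal muscle markers were high in some samples and near the array median in others, with wild types F14_2 at 6.51 and F15 at 5.74 in between. Their mean level was 3.46 to 11.21 in the mutants and 3.54 to 9.19 in the wild types, and 4 arrays were rich in them, namely mutants F12 at 11.21, F19 at 9.08 and F20 at 9.96 and wild type F16 at 9.19. Without those 4 arrays 1460235_at of Scarb2 differed by 0.36 (limma adjusted p 0.59), the brighter Scarb2 probe set by -0.20, Ids by -0.16 and Sgsh by -0.33. That fit set 2 mutant arrays against 4 wild-type arrays, which still included F14_2 and F15. Smooth muscle markers were lower in the mutants for 8 of 9, with mean levels of 10.69 to 11 in the mutants and 10.84 to 11.14 in the wild types. By limma 4 of the 9 (44.4%) had an unadjusted p under 0.05, against 15% of all genes, and none was called. These 4 were all lower, with Smtn differing by -0.33, Cnn1 by -0.26, Lmod1 by -0.26 and Myh11 by -0.18. Lmod1 and Myh11 did not overlap between the genotypes, where 4.21% of all genes did not. Des was the 1 higher, by 0.48, with an SD of 0.98 in the mutants. The log2 of the summed level of 9 endothelial markers was 10.12 to 10.33 in the mutants and 10.12 to 10.35 in the wild types. Of these, 7 were higher and 2 lower, and 2 (22.2%) had a limma unadjusted p under 0.05, against 15% of all genes. They were Emcn (0.50) and Pecam1 (-0.33), both without overlap, against 4.21% of all genes. The summed level of 8 adipocyte markers was 15.59 to 15.69 in the mutants and 15.43 to 15.62 in the wild types. Of these, 7 were higher and 1 lower, and 3 (37.5%) had a limma unadjusted p under 0.05, against 15% of all genes. They were Lpl (0.26), Cidec (0.28) and Lep (-0.78). None of either list was called.

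**Figure D5:**
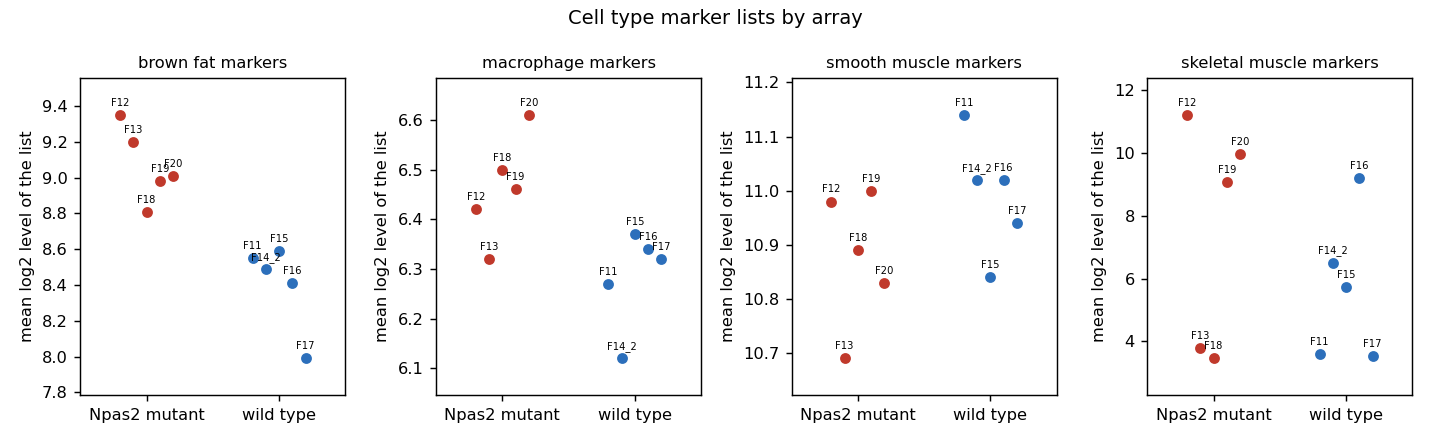
Mean log2 level (vertical axis, not starting at 0) of 4 cell type marker lists, 1 point per array with its identifier, Npas2 mutant left of wild type. Brown fat markers are higher on every mutant array, and macrophage markers overlap between 6.32 and 6.37. The mean of the smooth muscle markers overlaps widely, although 8 of the 9 markers had a lower mutant mean. Skeletal muscle markers are high on 3 mutant arrays and 1 wild-type array, with wild types F14_2 and F15 in between.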

How the data were processed

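Total RNA was labelled with biotin and hybridised to Affymetrix MOE 430V2 arrays, per the labels. The authors deposited log2 values, 1 per probe set and array, already summarised and normalised. Both GCRMA and MAS5 appear in the submitters' processing notes, which do not say which made the table, and that the scale is log2 was read from the values, whose upper quartiles per array were 5.38 to 5.54. No batch could be examined, since the sources used here give no scan dates. The number of arrays limits precision.

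The table held 45101 probe sets, of which 64 controls were left out. The platform annotation, which is old, gave 34945 a single gene, 932 several genes and 9160 none, and genes were named only from the first kind. The values were used as given. Probe sets were tested if brighter than the median of the array in question on 5 or more of the 10 arrays, and mutant minus wild type was fitted with limma 3.58.1 in R 4.3.3 (lmFit and eBayes, no trend, not robust, two-sided, Benjamini-Hochberg adjustment, threshold 0.05). No pair of arrays was identical, with correlations of 0.986 to 0.996.

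Members and lists were chosen with earlier results of these data known. Values by array are given for members called, those with an unadjusted p under 0.05, Tfeb, and the member of largest absolute change in each role group. From the pathway lists the 2 genes of smallest p are named. Lamp2 values by array, Tfe3, Mitf, Ucp1, Cd14, Lyz2 and the further marker genes named singly were added after values were seen. Alternatives covered the filter, scaling, variance model, array weights, marker list covariates, the mean over a gene's probe sets and each array left out. The fitting procedure was tested on simulated data.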

Additional observations from a re-analysis of the deposited data

Results flagged for a closer look

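In 74 groups of 5 arrays, formed by each lysosomal gene in each genotype and by the other Scarb2 probe set, 6 had an array whose gap to the nearest of the others exceeded Dixon's critical share of the range, 0.71. Chance gives about 1 in 20. Mutant array F13 was high for Cln3 at 4.25, against 3.69 to 3.74 in the other mutants, and for Smpd1 at 7.59, against 7.39 to 7.43. Mutant array F12 was high for Gla at 4.39, against 3.95 to 3.98, and low for Sgsh at 2.83, against 3.89 to 4.0. Wild-type array F15 was low for Cln3 at 3.53, against 3.68 to 3.72 in the other wild types, and wild-type array F16 was low for Glb1 at 5.57, against 5.86 to 5.96. Cln3, Gla and Sgsh are among the dimmest of the lysosomal genes.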

How the results depend on the processing

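No lysosomal gene was called under any of the 24 alternatives, 21 planned and 3 added after seeing the data. At an unadjusted p under 0.05 there were 1 to 7 genes. The 7 of 36 came with quantile normalisation, where 3325 of all 22340 tested probe sets passed that cut. In settings with 1 of 36, 1653 to 3128 of 22340 did. All were limma fits except the ordinary one-way analysis named in the series design. In that analysis 0 were called and 4 had an unadjusted p under 0.05, as did 3353 of 22340 probe sets. All used the brightest probe set except the mean over a gene's probe sets. That setting tested 33 of the 36 genes and the 75th percentile filter 29, so the rest could not be called there. The brighter Scarb2 probe set turned from -0.24 to 0.09 with the brown fat covariate (adjusted p 0.914) and Scarb2 to 0.06 with the mean over both probe sets (adjusted p 0.606), and otherwise ran from -0.32 to -0.19. Ids, -0.23, turned to 0.03 with the brown fat covariate and became -0.01 with the mean over its probe sets (adjusted p 0.908), and Sgsh, -0.51, became -0.12 with the brown fat covariate (adjusted p 0.957). The call of 1460235_at was lost with the covariates brown fat (0.34, adjusted p 0.543), macrophage (0.32, 0.203), skeletal muscle (0.37, 0.0775) and adipocyte (0.39, 0.0538), and without the 4 arrays richest in skeletal muscle markers (0.36, 0.59). The brown fat mean separated the genotypes completely, so that fit leaves little of the genotype difference to test. The macrophage mean overlapped in part. In its fit 2982 probe sets had a limma unadjusted p under 0.05, against 3427 in the main fit. The change of 1460235_at was 0.35 to 0.39 with each array left out, and its adjusted p ran from 0.0127 to 0.59 over all settings. The median change over the genes, -0.005, became 0.053 after centring on the tested probe sets and 0.04 without the 4 arrays. Calls over all probe sets, 48, became 17 without the filter, 141 with the 75th percentile filter, 13 in the one-way analysis, 1, 1, 7 and 10 with the brown fat, macrophage, skeletal muscle and adipocyte covariates, 9 to 43 with each array left out, and 0 by limma without the 4 arrays, where 1549 probe sets had an unadjusted p under 0.05. Sgsh was not tested with the 75th percentile filter or the mean over probe sets. No paired analysis was possible because the genotypes share no replicate identifiers. The number of arrays, 5 per genotype, limits precision, and Sgsh had the largest SE, 0.21, followed by Psap, 0.16.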
